A study of Mus musculus with 3 samples.

Results

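The p53 family of transcription factors and its closest protein regulators were examined in mouse primary keratinocytes that lack RASSF9, one of the proteins that share a Ras-association domain. The family was taken as 6 genes, which are Trp53, Trp63, Trp73, Mdm2, Mdm4 and Ppp1r13l, and every probe set whose array annotation gave exactly 1 of these symbols was a member. This rule found 17 probe sets, which cover 5 of the 6 genes, among 45037 in all with control probe sets left out. Trp53 itself was not analysed here, because no probe set is paired with its symbol in the annotation used.

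RNA was measured on Affymetrix Mouse Genome 430 2.0 arrays, which read each transcript with a set of short probes, the probe set. There was 1 WT array and 2 RASSF9-/- arrays, each from keratinocytes of a separate culture of neonatal skin of ICR mice. The methods give a low-calcium serum-free medium with supplements. The labels differ from the methods in the medium supplement, and which holds is not settled. The RASSF9-/- mice are homozygotes of a single line in which an inserted LMP1 transgene of Epstein-Barr virus removed a stretch of the RASSF9 gene, so they also carry the transgene and WT mice do not. The labels give 24 h of culture for WT and 48 h for RASSF9-/-, whereas the methods give the same time for all samples, so if the labels hold, genotype and time in culture cannot be told apart.

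p53, p63 and p73 are related DNA-binding proteins. p53 is kept at a low level by MDM2, a ubiquitin ligase whose own gene is a p53 target, and MDM4 is a partner of MDM2 that blocks the activity of p53. p63 is the member that the epidermis depends on. It maintains the basal keratinocytes, both activates and represses genes there, and is lowered as the cells differentiate. iASPP, the product of Ppp1r13l, binds p53 family proteins, restrains their activity, and is found in stratified epithelia including the epidermis.

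The promoters of Mdm2 and Ppp1r13l are shown because these regulators lay on opposite sides of WT. Each is the 250 bases before the gene start in RefSeq on GRCm38.p6, 5′ to 3′ on the strand of the gene, at chr10:117710759-117711008 on the minus strand for Mdm2 and chr7:19360966-19361215 on the plus strand for Ppp1r13l. Capitals mark matches on either strand to the p53 half-site consensus, CCAAT or GGGCGG, and TATAAA was also searched.
Mdm2: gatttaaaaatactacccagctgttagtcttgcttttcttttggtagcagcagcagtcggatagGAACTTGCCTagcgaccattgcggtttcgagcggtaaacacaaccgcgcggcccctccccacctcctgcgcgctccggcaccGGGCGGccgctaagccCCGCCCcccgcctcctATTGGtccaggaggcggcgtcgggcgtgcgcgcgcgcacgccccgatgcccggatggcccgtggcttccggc
Ppp1r13l: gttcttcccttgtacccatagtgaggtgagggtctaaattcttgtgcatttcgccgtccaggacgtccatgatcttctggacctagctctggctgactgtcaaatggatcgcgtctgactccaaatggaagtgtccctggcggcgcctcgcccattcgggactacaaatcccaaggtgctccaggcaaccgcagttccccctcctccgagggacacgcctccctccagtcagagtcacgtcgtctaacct
The Mdm2 window held 1 match to the p53 half-site, 186 bases before the start, with 1 CCAAT and 2 GGGCGG, and none of its matches overlapped. The Ppp1r13l window held no match to any of these motifs. Of the 32851 promoters of that table, 7.13% held a p53 half-site, 33.8% CCAAT, 32.7% GGGCGG and 12.4% TATAAA. A match describes the letters of the window and is not a measured binding site.

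Rassf9 was first compared between the arrays as a check of the labels. Its brighter probe set had a signal of 478 in WT and of 59.6 and 120 on the RASSF9-/- arrays 1 and 2, and the other had 340, 68.2 and 76.7. Signals are MAS5 values, a linear intensity scaled so that the trimmed mean of each array was 500. The highest signal of the bacterial control probe sets, which have no target in mouse RNA, was 78.4 and served as the background limit. With lower values raised to this limit, the brighter Rassf9 probe set was at least 4.93-fold lower in the mean log2 signal of the RASSF9-/- arrays. On array 2, which was above the limit, it was 3.98-fold lower. Both knockout arrays were below WT on both probe sets.

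Trp63 was lower than WT on both RASSF9-/- arrays with all 4 of its probe sets. The brightest, 1418158_at, had a signal of 3239 in WT, 1460 on RASSF9-/- array 1 and 1543 on array 2. It was thus 2.22-fold and 2.10-fold lower, and the knockout arrays differed from each other by 0.08 on the log2 scale against a distance from WT of at least 1.07. The second, 1459581_at, had 474 in WT, 216 on array 1 and 108 on array 2, a 2.19-fold and a 4.40-fold difference. Probe set 1452027_a_at had 376, 102 and 185, and was 3.67-fold lower on array 1 and 2.03-fold lower on array 2. These 3 probe sets were above the background limit on every array. Probe set 1451876_a_at had 198 in WT but 67.5 and 73.6 on the RASSF9-/- arrays, both under the limit, so it is only bounded, at least 2.53-fold lower. The knockout arrays lay close together on 1418158_at and 1451876_a_at, but were about 1 log2 unit apart on 1459581_at and 0.85 apart on 1452027_a_at, in opposite orders. Which p63 isoform each probe set reads was not examined.

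**Figure D1:**
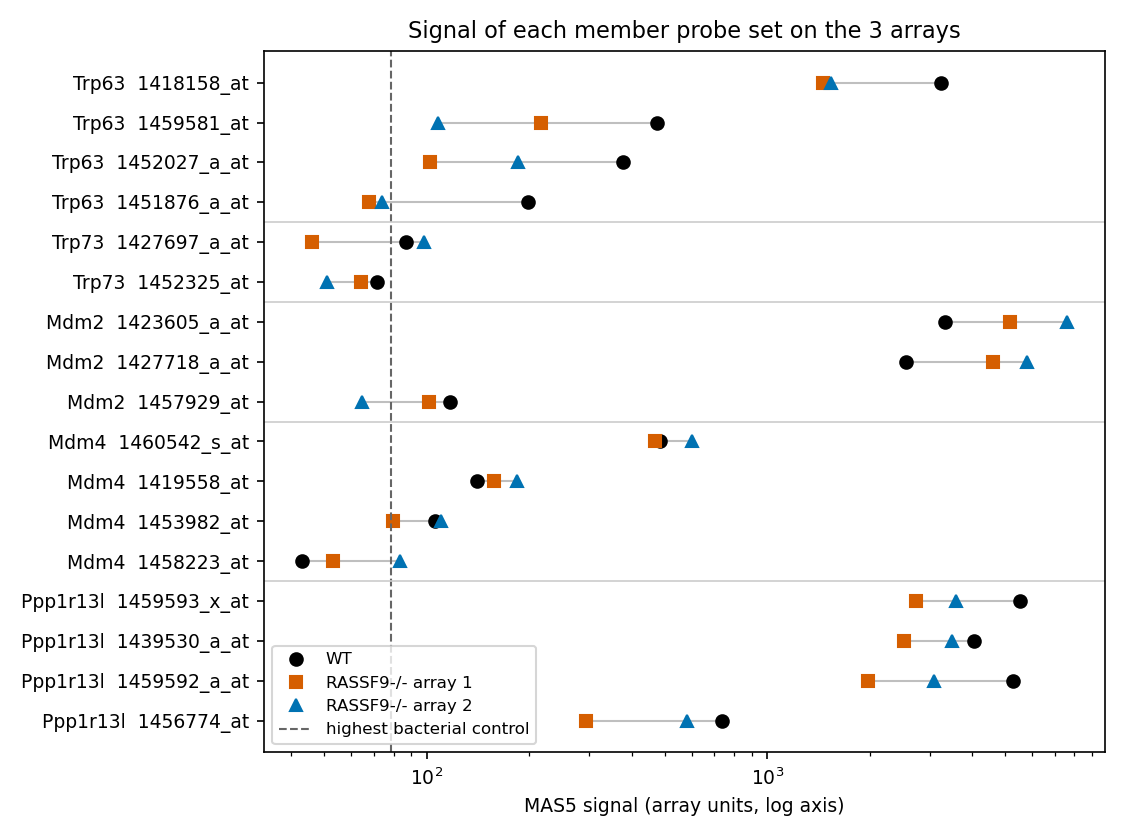
MAS5 signal (log axis) of each of the 17 member probe sets, grouped by gene, on the WT array (black circles), RASSF9-/- array 1 (orange squares) and RASSF9-/- array 2 (blue triangles). The dashed line is the background limit of 78.4; both knockout arrays lie left of WT for every probe set of Trp63 and Ppp1r13l and right of WT for the 2 bright probe sets of Mdm2.

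The moderated limma test on the brightest probe set of each gene gave Trp63 a log2 fold change of -1.11 (SE 0.35, 95% interval -1.96 to -0.26, n = 1 WT and 2 RASSF9-/- arrays). Its unadjusted p was 0.0182, and its Benjamini-Hochberg adjusted p over the 11089 genes of the fit was 0.689, so Trp63 did not pass the threshold of 0.05. In that fit 9 genes passed, all higher in RASSF9-/-, which is 0.0812% of the genes, and none of the 4 measured members was among them, although 2 of these, Trp63 and Mdm2, had an unadjusted p under 0.05, as 5.55% of all genes did. In the fit of all 22519 probe sets above the filter, 11 or 0.0488% passed and none of the 14 member probe sets did. An unadjusted p under 0.05 was reached by 7 of these 14, against 5.3% of all probe sets; the 7 are the 4 of Trp63, 2 of Mdm2 and 1 of Ppp1r13l, and probe sets of the same gene are not independent. The other 3 Trp63 probe sets had log2 fold changes of -1.64 (SE 0.61), -1.45 (SE 0.60) and -1.49 (SE 0.62). The test rests on a single residual degree of freedom and takes the spread of WT to be that of the RASSF9-/- pair. Rassf9, the disrupted gene, did not pass in either fit, although its probe sets had log2 fold changes of -2.50 and -2.23. A member that did not pass was therefore not shown to be unchanged.

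The log2 fold change of Trp63 lay at or above that of 427 of the 11089 genes, or 3.85%. Both knockout differences are taken from the same WT array, so a deviation of that array alone would appear in both. Array 1 shares its array date with WT in the labels and array 2 does not. The difference within that date was -1.15 for 1418158_at, and against array 2 it was -1.07. Trp63 remained below WT on both arrays, with all 4 probe sets, when the arrays were scaled to their medians, to common quantiles or to the hybridization controls.

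p73, the remaining family member measured, was near background. Probe set 1427697_a_at of Trp73 had a signal of 87.1 in WT, 46.0 on array 1 and 98.3 on array 2, so the knockout arrays lay on opposite sides of WT. The other, 1452325_at, had 71.2, 64.0 and 50.9 and was under the background limit on all 3 arrays. Neither entered the fit, and no difference of Trp73 was detectable at these signals.

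Mdm2, the p53 ubiquitin ligase, was higher than WT on both RASSF9-/- arrays with its bright probe sets. Probe set 1423605_a_at had a signal of 3327 in WT, 5158 on array 1 and 7581 on array 2, which is 1.55-fold and 2.28-fold higher. Probe set 1427718_a_at had 2552, 4608 and 5813, or 1.81-fold and 2.28-fold higher. WT lay below both knockout arrays on both, and array 2 was the higher one. The third, 1457929_at, went the other way, with 117 in WT, 102 on array 1 and 64.6 on array 2, the last under the background limit. Its log2 fold change of -0.53 had an interval of -2.08 to 1.02 and an adjusted p of 1.00 by limma. For 1423605_a_at the limma test gave a log2 fold change of 0.91 (SE 0.37, 95% interval 0.01 to 1.81), an unadjusted p of 0.0479 and an adjusted p of 0.892, which did not pass. For 1427718_a_at it gave 1.02 (SE 0.35) with an adjusted p of 0.777.

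The log2 fold change of Mdm2 was matched or exceeded by 5.74% of the genes. Within the shared array date its difference was 0.63, and against array 2 it was 1.19.

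**Figure D2:**
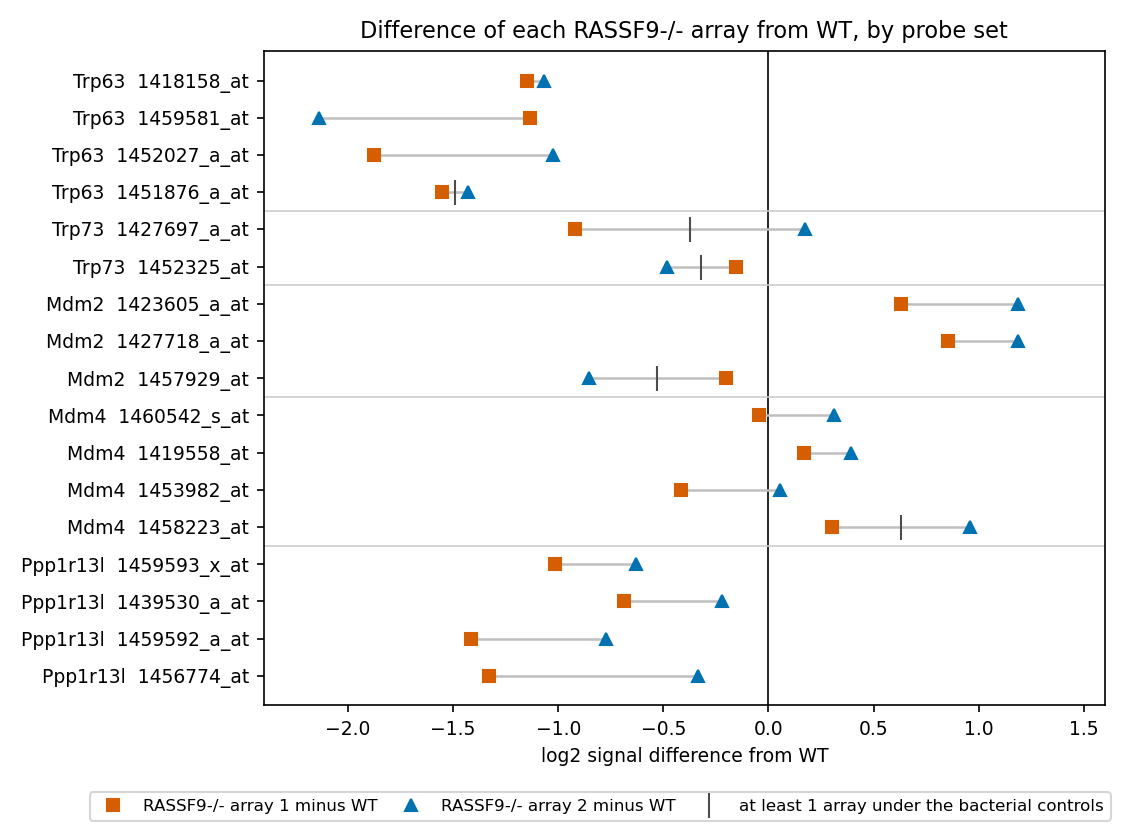
Difference in log2 signal from WT for each of the 17 member probe sets, for RASSF9-/- array 1 (orange squares) and array 2 (blue triangles), with a grey line joining both and a vertical line at 0 for WT. A small bar marks probe sets with at least 1 array under the background limit; the 4 Trp63 and 4 Ppp1r13l probe sets lie below 0 on both arrays, and Mdm2 1457929_at lies opposite to the other Mdm2 probe sets.

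Mdm4, the partner of MDM2, did not keep 1 side of WT. Its brightest probe set, 1460542_s_at, had a signal of 484 in WT, 469 on array 1 and 600.4 on array 2. The limma log2 fold change was 0.13 (SE 0.46, 95% interval -0.97 to 1.24, adjusted p = 1.00), an interval that holds a change of about 2-fold either way. Scaling to the hybridization controls put it at -0.18 by shifting all genes alike, and Mdm4 stood 0.14 above the median of all genes under either scaling. Probe set 1419558_at had 140, 158 and 184 and was higher on both knockout arrays, and 1453982_at had 106, 79.3 and 110.0 and was split. Probe set 1458223_at had 43.0, 53.1 and 83.6, so only array 2 exceeded the background limit.

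Ppp1r13l, which codes for iASPP, was lower than WT on both RASSF9-/- arrays with all 4 probe sets. Probe set 1459593_x_at had a signal of 5537 in WT, 2739 on array 1 and 3576 on array 2. Probe set 1459592_a_at had 5270, 1973 and 3084, and 1439530_a_at had 4065, 2522 and 3493. The fourth, 1456774_at, had 735, 293 and 582. Array 1 was the lower of the knockout arrays each time, and the differences from WT ran from 1.61-fold to 2.67-fold on array 1 but only from 1.16-fold to 1.71-fold on array 2. Probe sets 1439530_a_at and 1456774_at were designed on 1 target sequence and the other 2 on another. Limma gave 1459593_x_at a log2 fold change of -0.82 (SE 0.35, 95% interval -1.67 to 0.03, unadjusted p = 0.0558, adjusted p = 0.911), which did not pass. At or below this value lay 7.34% of the genes.

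Over all 17 probe sets, 10 were lower than WT on both arrays, 4 were higher and 3 were split. Of all 45037 probe sets 32.7% were lower on both and 32.1% were higher on both. The 10 lower ones were the 4 of Trp63, the 4 of Ppp1r13l, 1 of Trp73 and 1 of Mdm2. Of the 17, 12 were above the background limit on every array. Over the 4 genes measured in the fit, 2 were lower on both arrays and 1 was higher, and of all genes of the fit 32.7% were lower on both and 33.6% higher on both. With so few genes these shares do not set the family apart.

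**Figure D3:**
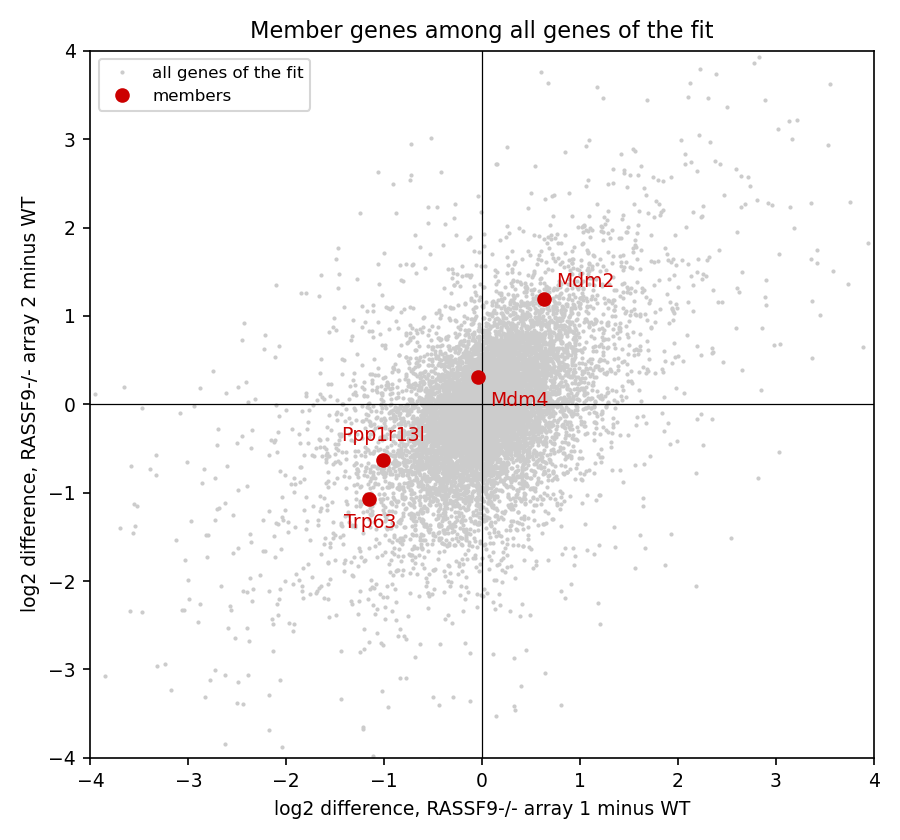
Difference in log2 signal from WT on RASSF9-/- array 1 (horizontal axis) and array 2 (vertical axis) for the 11089 genes of the fit (grey) and the 4 measured members (red); 47 genes lie outside the axes. Both axes share the WT array, which by itself draws points along the diagonal; Trp63 and Ppp1r13l lie at lower left, Mdm2 at upper right and Mdm4 near the centre.

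The genes whose pair of differences came closest to that of Trp63, by distance on the log2 scale over the 3 arrays, were Mboat2 (distance 0.02, signals 1646, 754 and 782), Phf2 (0.04), Setd5 (0.05) and Rnf128 (0.06). There were 63 genes within a distance of 0.25. Closest to Mdm2 were Glul (distance 0.01, signals 883, 1360 and 2020), Proser2, Ptar1 and Pop7 (each 0.05), and 144 genes lay within 0.25. The pattern of either member was therefore shared by many genes.

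Genes that act upstream on p53 showed no change that passed the test. The list has 22 such genes and 20 had a value in the fit, 8 of them above WT on both arrays, 4 below and 8 split, with a median log2 fold change of 0.08 against -0.01 for all genes. Those shares were 40% above and 20% below, against 33.6% and 32.7% of all genes. None of the list had an unadjusted p under 0.05. The damage kinase Atm had a signal of 337 in WT, 585 on array 1 and 556 on array 2, a log2 fold change of 0.76 (SE 0.45). The checkpoint kinase Chek1 had 104, 148 and 226, and the kinase Atr had 219, 244 and 402. All 3 kinases were above WT on both arrays, each by less than 2 SE. The acetyltransferase gene Crebbp was the fourth, with a log2 fold change of 0.27 (SE 0.35).

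On the lower side, the ubiquitin ligase gene Wwp1 had 1345, 827 and 1074, a log2 fold change of -0.51 (SE 0.40). The kinase gene Hipk2 had 3042, 2891 and 934, so its log2 fold change of -0.89 came almost wholly from array 2. Trp53bp2, which codes for the iASPP relative ASPP2, was at -0.11 and the ligase gene Rchy1 at -0.06, both within 1 SE of 0. Cdkn2a was under the filter on low signals and Rpl5 was not analysed here.

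Among the p53 targets, 28 of 30 had a value in the fit. Against 33.6% of all genes above WT on both arrays and 32.7% below, these targets had 7 above (25%), 10 below (35.7%) and 11 split. Their median log2 fold change was -0.14, none passed the test and none had an unadjusted p under 0.05. Mdm2, which is a p53 target too, was counted with the members only. Cdkn1a, which codes for the cyclin-dependent kinase inhibitor p21, had a signal of 21681 in WT, 15193 on array 1 and 18707 on array 2. Its log2 fold change was -0.36 (SE 0.32), lower on both arrays by about 1 SE.

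The stress-response gene Btg2 had 1435, 1011 and 522, and the sestrin gene Sesn1 had 599, 398 and 289. The death receptor gene Fas had 268, 154 and 174, and the apoptosis gene Bbc3, which codes for PUMA, was at -0.44 (SE 0.54) on the log2 scale. In the other direction, Sesn2, the relative of Sesn1, had 752, 1075 and 1177, a log2 fold change of 0.58 (SE 0.39). The kinase gene Plk2 had 9862, 12107 and 17682, the cyclin gene Ccnd2 had 7547, 10545 and 9424, and Pidd1 was at 0.45 (SE 0.58). The targets thus lay on both sides of WT. Bax and Gdf15 were not analysed here.

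**Figure D4:**
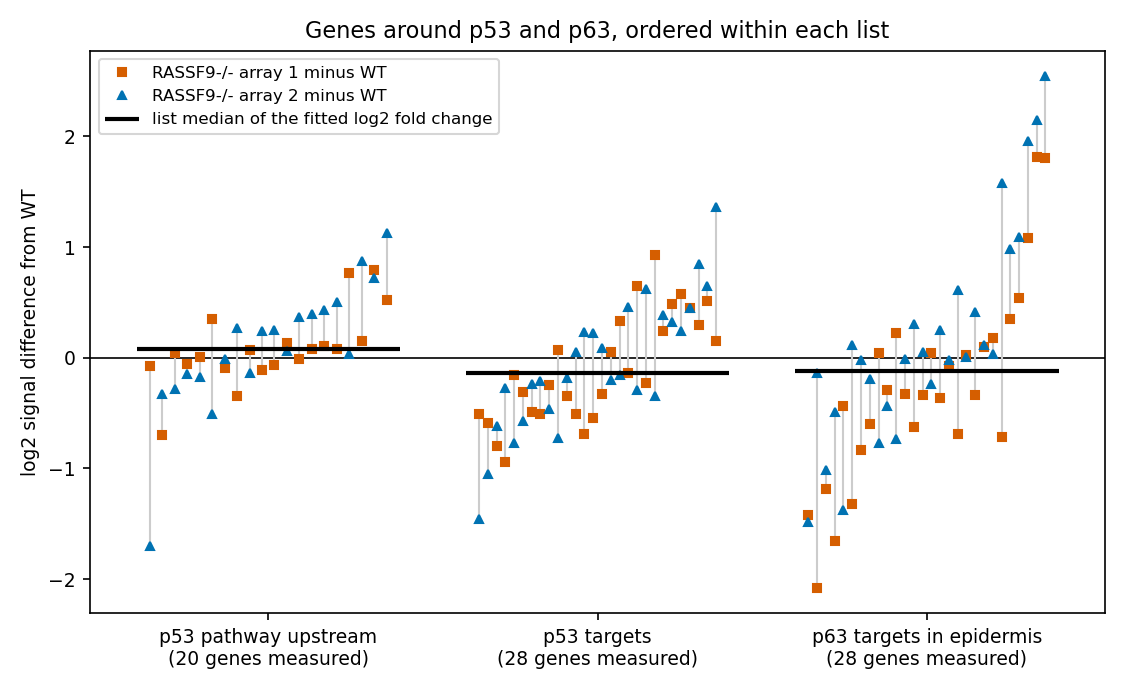
Difference in log2 signal from WT of each measured gene acting upstream on p53 (20 genes), each p53 target (28) and each epidermal p63 target (28), for RASSF9-/- array 1 (orange squares) and array 2 (blue triangles), ordered within each list. Thick bars are the list medians of the fitted log2 fold change, 0.08, -0.14 and -0.12; the p63 targets reach farthest from WT in both directions.

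The p63 targets of the epidermis are a list that holds both genes that p63 activates and genes that it represses. Of 34 such genes 28 were measured, of which 8 (28.6%) were higher on both arrays, 10 (35.7%) were lower and 10 were split. Of all genes 33.6% were higher on both and 32.7% lower. The median log2 fold change of these targets was -0.12, from -0.33 on array 1 and 0.02 on array 2. None passed the test, while 3 higher and 2 lower ones had an unadjusted p under 0.05, which is 5 of 28 against the 5.55% of all genes. Igfbp3, a binding protein of insulin-like growth factors, had a signal of 3106 in WT, 10819 on array 1 and 18096 on array 2. Its log2 fold change of 2.17 (SE 0.40) had an adjusted p of 0.323 by limma. Pdpn, which codes for the membrane glycoprotein podoplanin, had 775, 2721 and 3431 and a log2 fold change of 1.98 (SE 0.37, adjusted p = 0.323). Both knockout arrays were over 3-fold above WT for these genes. Hells, a chromatin remodelling gene, had 299, 632 and 1158, and the tight junction gene Cldn1 had 6350, 9256 and 13494.

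Bmp7, a secreted growth factor gene, was at 787 in WT and at 293 and 282 on the RASSF9-/- arrays, a log2 fold change of -1.45 (SE 0.47, adjusted p = 0.689). The receptor gene Notch1 was at 5256, 2316 and 2606, a log2 fold change of -1.10 (SE 0.34, adjusted p = 0.656). On both genes the knockout arrays differed from each other by less than 0.2 on the log2 scale. The desmosomal gene Dsc3 had 6875, 2183 and 4906, and the hemidesmosomal gene Dst had 9720, 7178 and 3750. Krt14, the basal keratin gene and a p63 target, had 38140, 38752 and 38300 and differed from WT by 0.01 (SE 0.30) on the log2 scale. Fras1 and Dlx3 were under the filter, and the other genes of the list without a value were not analysed here.

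The cultures showed the defining keratinocyte genes at signals far above background on every array. The summed signal of the 4 measured keratinocyte markers was 93503 in WT, 84215 on array 1 and 94507 on array 2. Melanocyte markers were also present, with all 5 above the background limit on each array and summed signals of 27796, 23710 and 33213. The 6 fibroblast markers summed to 1320, 1035 and 811. Of the 5 with a value in the fit, 3 were lower on both knockout arrays, 0 were higher on both and 2 were split. Col1a1 was at 429, 243 and 143 and Col1a2 at 460.0, 247 and 166. Pdgfra, at 106, 98.3 and 67.0, was also lower on both, the last under the background limit. Dcn, at 197, 189 and 301, and Col3a1, at 106, 151 and 86.1, were split. Lum, at 21.1, 106 and 48.0, was under the limit in WT and on array 2, so its side of WT is not established. Without Col1a1 and Col1a2, a choice made after the values were seen, the other 4 markers summed to 430, 545 and 502. Of the endothelial cell markers only Kdr, and of the leukocyte markers only Adgre1, were above the limit on all arrays, and of the Merkel cell markers none was. The part of melanocytes or fibroblasts in the differences of the members was not tested. In such bulk samples, fewer cells of a type and less RNA per cell cannot be told apart.

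The median signal of the arrays was 90.8, 99.0 and 81.7 in WT, array 1 and array 2. The spiked hybridization controls were brighter than WT by 0.44 on array 1 and 0.20 on array 2 on the log2 scale, and scaling to them moved the median log2 fold change of all genes to -0.33. On that scale Trp63 was at -1.43, Ppp1r13l at -1.14 and Mdm2 at 0.59, the same sides of WT as before. Signal ratios of the 3′ to the 5′ probe sets, a sign of RNA integrity, ran from 0.83 to 0.94 for Gapdh and from 1.37 to 1.43 for beta-actin.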

How the data were processed

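Total RNA of 1 WT and 2 RASSF9-/- keratinocyte samples was hybridized to Affymetrix Mouse Genome 430 2.0 arrays. The values deposited by the authors are MAS5 signals, which are intensity values on a linear scale, and they showed a trimmed mean (2% at each end) of 500 on every array. The annotation gave 1 symbol for 34945 probe sets, several for 932 and none for 9160, and 64 control probe sets were left out. Trp53 was therefore not analysed here.

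Log2 signals were compared with limma 3.58.1 in R 4.3.3 (lmFit, eBayes with an intensity trend, two-sided, Benjamini-Hochberg at 0.05). The gene fit took the brightest probe set of each gene with a mean log2 signal at or above the 50th percentile (a signal of 82.7), and the probe set fit took every probe set above it. The residual degree of freedom was 1 and the prior ones 5.31. The number of arrays limits the precision, and the spread between the RASSF9-/- samples stands for that of WT. The background limit, the highest of 27 bacterial control probe sets, and the scaling to the hybridization controls were chosen after seeing the data. The members and gene lists were chosen with earlier results of these data known.

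All member probe sets were named. Of each other list, Cdkn1a and up to 4 genes per direction were named, those on 1 side of WT on both arrays with the largest smaller difference. Krt14 and the marker genes were named as checks of the cell type. Promoters were read from RefSeq. The alternatives were other scalings, filters, a background floor, a pseudocount, the mean of probe sets, no intensity trend, the methods' t-test and leaving out a knockout array. The methods name t-tests for statistics in general, and for the arrays they give the GeneSpring software and no test. The script was tested on simulated data.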

Additional observations from a re-analysis of the deposited data

How the results depend on the processing

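Trp63, Mdm2 and Ppp1r13l kept their side of WT, and did not pass the adjusted threshold, in all 9 alternatives that keep the 3 arrays and refit limma. Their log2 fold changes ran from -1.43 to -1.09 (adjusted p 0.428 to 0.979), from 0.47 to 0.92 (0.812 to 1.00) and from -1.14 to -0.80 (0.604 to 1.00). The other filters, the background floor and the fit with no intensity trend could not move these fold changes. They leave the signals of these bright probe sets as they were, so only the adjusted p could differ there. Leaving out either knockout array, which allows no test, left Trp63 between -1.15 and -1.07. It put Mdm4 between -0.045 and 0.31 and Trp73 between -0.92 and 0.17, and the median of the p63 targets between -0.33 and 0.021. Scaling to the hybridization controls, which moved the median of all genes to -0.33, put Mdm4 at -0.18 and the median of the upstream genes at -0.24. It shifts all genes of an array alike, so their distances from the median of all genes (0.14 and 0.087 above) could not change. With the filter at the 75th percentile the upstream median was -0.033. By the methods' t-test, unadjusted, 1 member gene passed, Trp63 (log2 fold change -1.11). Of all 11089 genes, 258 passed it as higher and 235 as lower, Trp63 among the latter. With Benjamini-Hochberg adjustment no member gene passed.

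The 9 genes called higher became 0 with quantile normalization, with values under the bacterial controls raised to them, or with no intensity trend, 5 with the filter at the 75th percentile or a pseudocount of 32, 14 with the hybridization controls, and 258 unadjusted or 3 adjusted by the methods' t-test. Genes called lower, 0 in the reported fit, numbered 1 with median scaling, 2 with the mean of probe sets, 9 with the hybridization controls, and 235 unadjusted or 1 adjusted by the methods' t-test. Under the 75th percentile filter 5 member probe sets were lower on both arrays and 2 higher. With the hybridization controls 12 were lower and 2 higher. The shares over all probe sets were not taken under these settings, so these member counts have no comparison. That filter only removes probe sets, and that scaling shifts all probe sets of an array alike. Why the numbers of called genes changed was not tested. No paired analysis was possible because there was only 1 WT array.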
